A study of Mus musculus with 11 samples.

Results

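Medial Kölliker's organ (KO) cells are a class of tall epithelial cells in the floor of the neonatal mouse cochlear duct, and 3639 of the 14043 P1 cells fell in the class. The members were selected on measured values: deposited ln values of Calb1 of at least 2.0, Crabp1 above 0, Otoa and Matn4 at 0, Myo6 below 1.5, Ccer2 below 2.0 and Oc90 below 3.5. Calb1 encodes a calcium-binding protein and Crabp1 a retinoic acid-binding protein. The other 5 genes set aside interdental cells (Otoa), inner phalangeal cells (Matn4), hair cells (Myo6 and Ccer2) and cells of the cochlear roof (Oc90). Across the 4 ages of the series there were 30634 cells in all.

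The cells came from 11 droplet libraries (10x Chromium, 3′ ends) of enzymatically dissociated duct floor epithelium of wild-type CD1 mice of either sex, with no treatment and no transgene. P1 contributed 4 libraries, E16 3, and E14 and P7 2 each. Each library was a separate collection in which the cochleae of several animals were pooled, so that the spread between libraries is that between collections and cannot be split into animals. The 4 P1 libraries, replicates 1 to 4, were the samples compared. Members were set against 2821 P1 cells with Calb1 at 0 and Gjb2 of at least 2.0 that were not hair cells (the Calb1-negative Gjb2-positive cells), against 407 cells with Otoa of at least 2.0 (the Otoa-high cells, on the interdental side) and against all 10404 other P1 cells, which include both.

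Before hearing begins, the medial floor of the duct is built of crowded columnar cells, many of which later thin out into the low cells of the inner sulcus. While present, these cells send ATP into their surroundings in bursts, and neighbouring inner hair cells fire in response. They also lay down α-tectorin, β-tectorin and collagens of the gel above the hair bundles. Interdental cells lie at the medial end of this epithelium and inner phalangeal cells surround the inner hair cells at its lateral end.

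Levels are given as unique molecular identifiers (UMIs) of a gene per 1000000 UMIs of a cell, averaged over the cells of a group in 1 library (CPM). Differences are log2 values of CPM + 10, members minus comparison cells, and understate the change of genes at low levels. Genes called higher or lower had an adjusted p of 0.05 or less in limma with library as a block. The genes of the rule were described and not tested, and genes that vary together with a gene of the rule, or with Gjb2 or Otoa where these chose the comparison cells, had to differ to some degree because of how the cells were chosen.

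Replicates 1 to 4 held 1171, 713, 869 and 886 members, which is 31.2%, 32.7%, 34.5% and 15.8% of their cells. The exact 95% intervals, which cover counting error only, were 29.8% to 32.8%, 30.8% to 34.7%, 32.7% to 36.4% and 14.9% to 16.8%. Replicate 4 stood apart with the lowest share, and its interval did not overlap those of the others. Of its cells, 26.4% had a Calb1 value of at least 2.0, against 45.1% to 46.7% in the other libraries. Median depth was 4980, 4928, 5424 and 3586 UMIs in members and 6166, 5417, 5907 and 3912 in the other cells, so that replicate 4 was also the shallowest library. The part of depth in this share was not tested.

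**Figure D1:**
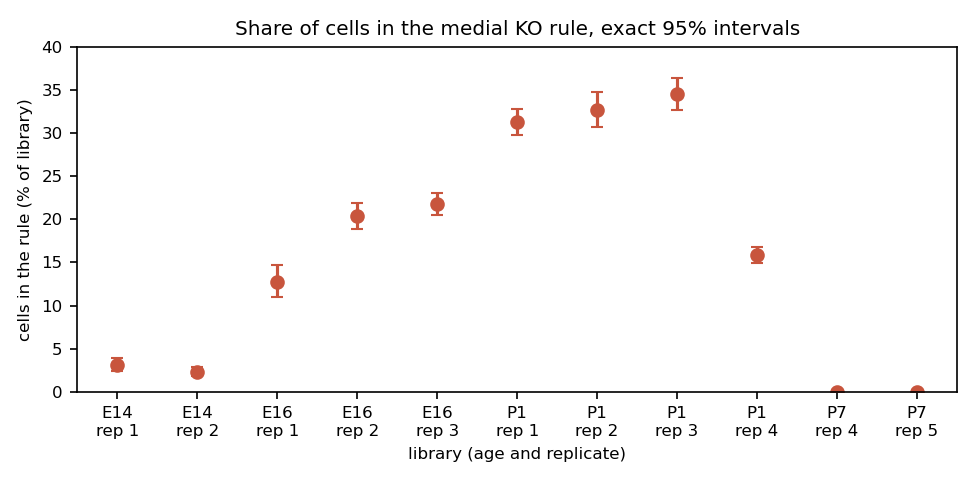
Cells that met the rule as a percentage of all cells of each library, with exact 95% binomial intervals as bars. P1 replicates 1 to 3 lie at 31.2% to 34.5% and replicate 4 at 15.8%; no cell met the rule in the P7 libraries.

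Most cells that met the other conditions had Crabp1, whereas many Crabp1 cells were below the Calb1 threshold. Among cells that met every other condition, 92.6%, 91.4%, 92.8% and 88.4% also had a UMI of Crabp1 in replicates 1 to 4. In the other direction, 1380.0 of 2092, 776 of 1319, 919 of 1568 and 968 of 2841 cells with Crabp1 had a Calb1 value of at least 2.0. A UMI of Crabp1 was found in 28.7% to 43.5% of the Calb1-negative Gjb2-positive cells, and in 15.8% to 25.2% after every cell was drawn down to 1500 UMIs. Calb1 in members stood at 2649, 1784, 1666 and 1325 CPM and Crabp1 at 2292, 2710.3, 2914 and 1486 CPM. Crabp1 was lower in the Calb1-negative Gjb2-positive cells, at 184, 344, 339 and 264 CPM, and lower still in the Otoa-high cells, at 33.1, 0, 0 and 19.6 CPM. Calb1 reached 479, 278, 252 and 92.6 CPM in the Otoa-high cells. These genes chose the cells, and their levels are a description. Cells just under the Calb1 threshold (1.5 to below 2.0, 718 cells) held 496 ± 15.5 CPM of Calb1 and 3685 ± 870 CPM of Epyc (SD, n = 4). Cells just over it (2.0 to below 2.5, 999 cells) held 890.1 ± 23.3 CPM of Calb1 and 4909 ± 322 CPM of Epyc.

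Epyc, which encodes the small leucine-rich proteoglycan epiphycan, was not part of the rule. It was chosen as a marker of the class with earlier results of these data known. Over member cells it also followed Crabp1, a gene of the rule (mean Pearson r of 0.31). It is therefore a description and no independent check of the label. It was measured at 7615, 6277, 5727 and 4841 CPM in members, at 2331, 1692, 2108 and 1802 CPM in the Otoa-high cells and at 246, 215, 194 and 995 CPM in the Calb1-negative Gjb2-positive cells. Members were above both groups in each of the 4 libraries, with no overlap. Replicate 4 held the most Epyc among the Calb1-negative Gjb2-positive cells and the least among members. After every cell was drawn down to 1500 UMIs, 97.7% to 99.0% of members had a UMI of Epyc, against 77.7% to 94.6% of Otoa-high cells and 11.8% to 33.0% of Calb1-negative Gjb2-positive cells (unthinned, 98.6% to 99.5% of members). As a background, cells of the same libraries marked as hair cells by Myo6 and Ccer2 (a choice made after the values were seen) had a UMI of Epyc in 18.2%, 7.38%, 6.25% and 8.27% after thinning, at median depths of 9699, 7442, 8287 and 5333 UMIs. Members and Otoa-high cells were above that share in every library, whereas the Calb1-negative Gjb2-positive cells of replicate 1, at 17.9%, were not. Those of replicate 2, at 11.8%, lay within the exact 95% interval of its hair cells (3.74% to 12.8%). From these shares, no expression of Epyc above that of hair cells is read from that group in replicates 1 and 2. In mean level the hair cells held 274, 41.7, 58.6 and 69.4 CPM of Epyc, which was below that group in replicates 2, 3 and 4. Share and mean level thus differed for replicate 2, and the cause was not tested. Within members the level of Epyc was broad. The 5th percentile over cells lay at 1367 to 1670 CPM and the 95th at 8700 to 14398 CPM, by library.

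Epyc lies on chromosome 10 (GRCm38, 97644068 to 97682454, plus strand), Calb1 on chromosome 4 (15881264 to 15908064, plus strand) and Crabp1 on chromosome 9 (54764748 to 54773110, plus strand). The bases before 1 RefSeq start each of Epyc, of Itm2a and of Igf1 are shown because the levels of Itm2a and Igf1 were the closest to that of Epyc over member cells. All 3 windows are 250 bases long, 5′ to 3′ on the strand of the gene, on GRCm38.p6. The GENCODE annotation starts Igf1 further upstream, at 87858265, so that the Igf1 window lies inside that gene, and ends Itm2a at 107403376 on the minus strand, which the Itm2a window overlaps. Capitals mark AGATAA, a motif of GATA factors, or AGGTCA, the core letters of nuclear receptor elements, in either orientation, and TATAAA was searched as well.
Epyc, chr10:97643818-97644067, plus strand: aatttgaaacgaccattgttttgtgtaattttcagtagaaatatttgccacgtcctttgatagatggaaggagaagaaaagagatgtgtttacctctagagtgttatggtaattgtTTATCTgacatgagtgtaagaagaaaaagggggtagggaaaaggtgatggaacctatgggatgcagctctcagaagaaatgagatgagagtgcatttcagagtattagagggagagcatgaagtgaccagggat
Itm2a, chrX:107403361-107403610, minus strand: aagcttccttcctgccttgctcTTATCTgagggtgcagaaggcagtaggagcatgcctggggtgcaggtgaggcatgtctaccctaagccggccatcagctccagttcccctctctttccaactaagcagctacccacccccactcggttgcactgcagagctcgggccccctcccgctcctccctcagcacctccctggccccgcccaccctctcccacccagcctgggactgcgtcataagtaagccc
Igf1, chr10:87860861-87861110, plus strand: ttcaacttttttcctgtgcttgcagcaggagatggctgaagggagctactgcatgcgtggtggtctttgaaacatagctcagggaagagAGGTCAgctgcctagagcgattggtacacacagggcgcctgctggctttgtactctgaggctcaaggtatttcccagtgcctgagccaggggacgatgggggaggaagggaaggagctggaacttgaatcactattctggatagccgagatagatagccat
AGATAA was matched once in the Epyc and once in the Itm2a window, on the opposite strand in both, and AGGTCA once in the Igf1 window. TATAAA was in none of the 3. Of 32851 such windows in the genome, 9.99% held AGATAA, 14.0% AGGTCA and 12.4% TATAAA. The window of Crabp1, searched in the same way and not shown, held no match of any of these motifs. The matches are a description of these letters, and no promoter window of Calb1 was used here.

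Members were first compared with the Calb1-negative Gjb2-positive cells. By limma 1498 genes rose (18.1% of 8296) and 1142 fell (13.8%) in members, 126 and 233 of them by at least 2-fold. The genes that rose most were Epyc, the imprinted long noncoding RNA H19, the co-regulator Cited1, the growth factor Igf1 and Smoc2, a secreted matrix-associated protein. Those that fell most were Tectb, the tectorial membrane protein β-tectorin, the fatty acid-binding protein Fabp7, the IGF-binding protein Igfbp3 and the Notch target Hes5. Centred on the median difference of all genes, which was 0.05, the split was 1131 higher and 1381 lower. The count of genes higher was 957 without replicate 2 and 890.0 without replicate 3.

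Igf1 stood at 446, 486, 508 and 552 CPM in members and 18.9, 18.6, 22.2 and 118 CPM in the Calb1-negative Gjb2-positive cells, a log2 difference of 3.56 ± 0.27 (SE, adjusted p = 5.47e-06). H19 stood at 283, 401, 457 and 449.5 CPM and 10.8, 9.16, 12.01 and 70.3 CPM, a difference of 3.79 ± 0.25 (SE, adjusted p = 2.56e-06). Both were higher in members in every library, which was a condition for naming the largest rises, with no overlap. Replicate 4 had the highest level of both among the comparison cells. Cited1 was at 320.0, 306, 236 and 124 CPM in members and 5.001, 7.35, 2.88 and 18.2 CPM in the comparison cells (3.79 ± 0.29 (SE, adjusted p = 6.52e-06)). Smoc2 was at 171, 319, 362 and 198 CPM and 16.99, 8.62, 7.71 and 39.6 CPM (3.34 ± 0.31 (SE, adjusted p = 2.15e-05)). The membrane protein Itm2a was measured at 1668, 959.5, 779 and 1320.3 CPM against 177, 114, 101 and 334 CPM, a difference of 2.73 ± 0.15 (SE, adjusted p = 9.48e-07). The difference for Epyc was 4.20 ± 0.35 (SE, adjusted p = 1.11e-05), and 4.84 without replicate 4. Uridine phosphorylase (Upp1), Gadd45g, and the protease inhibitors Serpinb5 and Spink5 completed the 10 largest rises, with differences of 3.04, 2.75, 2.68 and 2.55.

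In the other direction, Tectb stood at 319, 33.5, 44.1 and 32.04 CPM in members and 6312, 2556, 3183 and 1659 CPM in the Calb1-negative Gjb2-positive cells, a log2 difference of -5.33 ± 0.21 (SE, adjusted p = 8.84e-08). The groups did not overlap, although replicate 1 members held far more Tectb than the other libraries. Drawn down to 1500 UMIs, 20.5% of members of replicate 1 and 3.65% to 4.52% of those of the other libraries had a UMI of Tectb, against 58.2% to 93.6% of the comparison cells. Hair cells of the same libraries had a UMI of Tectb in 18.2%, 3.36%, 5.29% and 6.08%, at 277, 50.6, 53.8 and 38.4 CPM, and the shares in members lay within the exact 95% intervals of these in each library. No level of Tectb above that of hair cells is therefore read from members, and the cause of the high value of replicate 1 was not tested. Igfbp3 was at 30.9, 19.1, 21.02 and 18.002 CPM in members and 776, 938, 820.4 and 539 CPM in the comparison cells (-4.58 ± 0.12 (SE, adjusted p = 1.28e-08)). For Hes5 the levels were 14.5, 8.96, 6.09 and 11.8 CPM and 349, 469, 158 and 757 CPM (-4.27 ± 0.22 (SE, adjusted p = 5.55e-07)). Fabp7 was at 13.1, 1.45, 0.649 and 0.221 CPM and 1080.4, 445, 309 and 79.7 CPM (-4.73 ± 0.31 (SE, adjusted p = 2.23e-06)). The cytokine signalling inhibitor Socs2, the calcium-binding protein S100a1, carbonic anhydrase 2 (Car2), Smpdl3a, the otoconial matrix protein Otol1 and the protease Prss23 also fell, with log2 differences of -3.95, -3.67, -3.23, -3.195, -3.18 and -3.17. With the exclusions of the members applied to the comparison cells too, which removes those with Matn4, the difference was -3.21 for Fabp7 and -2.5003 for Prss23.

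**Figure D2:**
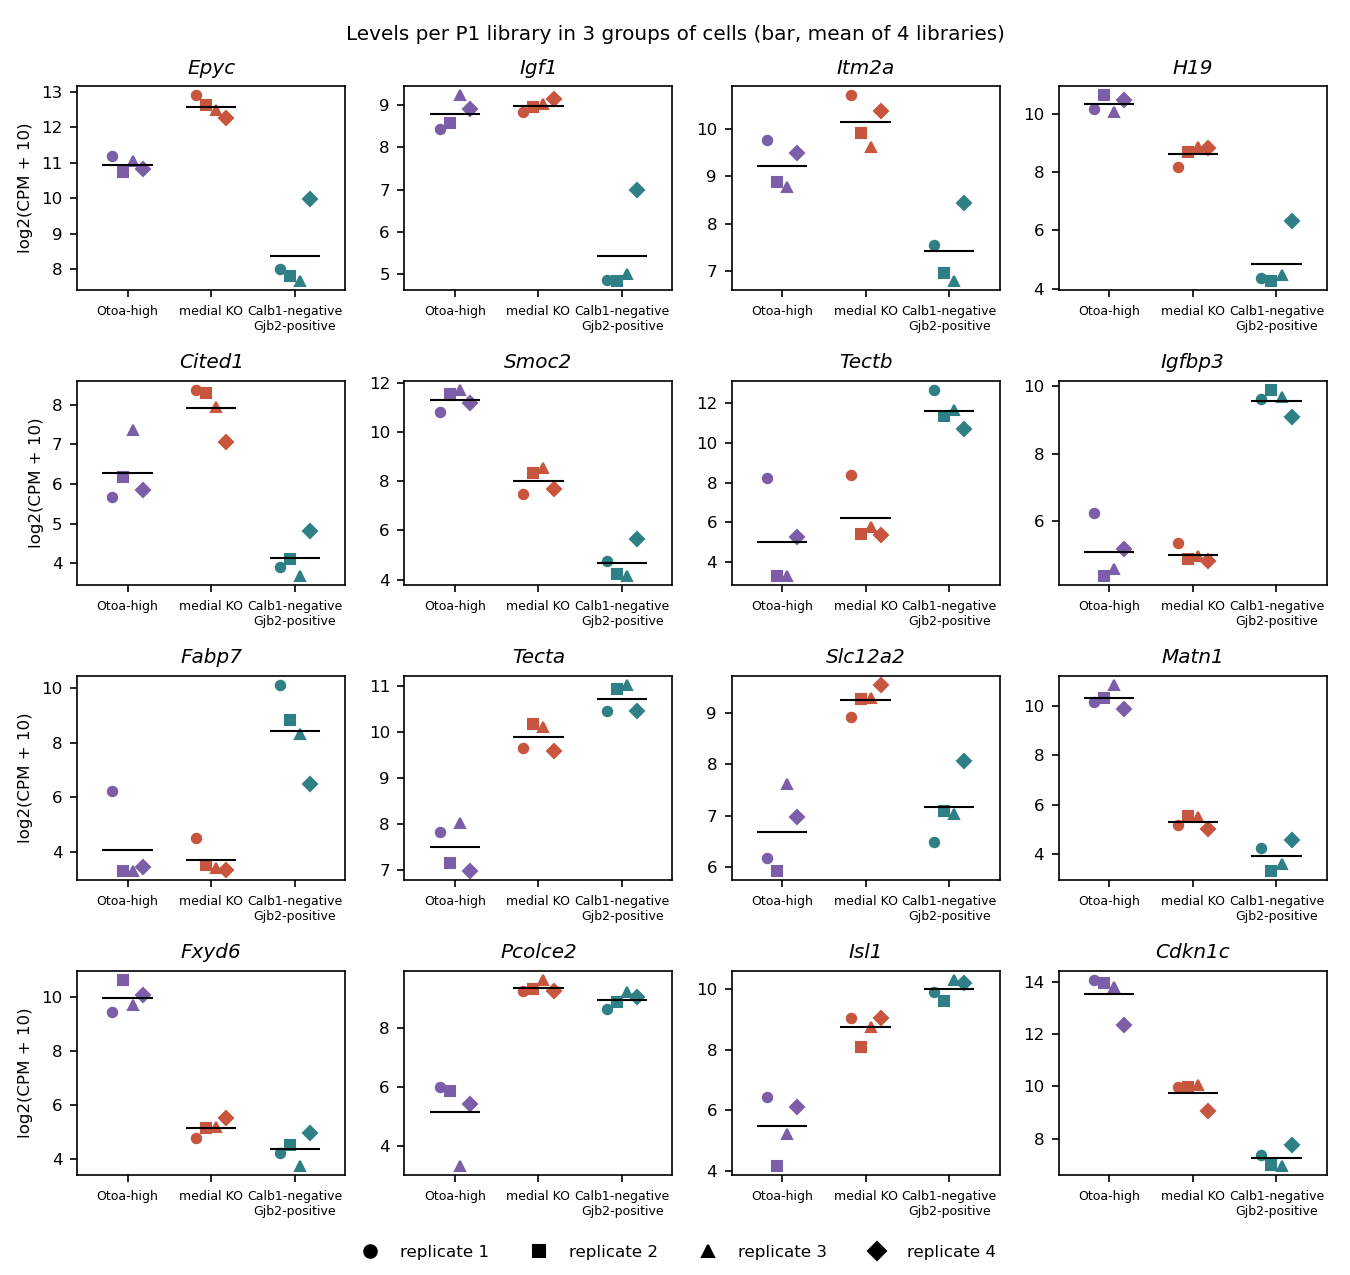
Levels of 16 genes as log2(CPM + 10), 1 point for each P1 library, in Otoa-high cells, members (medial KO) and Calb1-negative Gjb2-positive cells; the bar is the mean of 4 libraries. Epyc, Itm2a and Slc12a2 are highest in members, while Smoc2, H19 and Cdkn1c fall from Otoa-high cells to members to Calb1-negative Gjb2-positive cells.

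Members differed from the Otoa-high cells in another set of genes. By limma 568 genes rose (6.87% of 8273) and 464 fell (5.61%) in members, 310.0 and 301 of them by at least 2-fold. The median difference of all genes was 0.13, and relative to it 386 were higher and 606 lower. The Otoa-high profile of replicate 3 rests on 12 cells, in which 3 UMIs amount to 34.9 CPM, and those of replicates 1, 2 and 4 on 201, 37 and 157 cells. The count of genes higher was 269 without replicate 2 and 315 without replicate 4.

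Pcolce2, an enhancer of procollagen processing, stood at 592, 626, 773 and 597 CPM in members and 54.2, 47.3, 0 and 32.4 CPM in the Otoa-high cells. The difference was 4.21 ± 0.39 (SE, adjusted p = 2.96e-05), and 3.51 without replicate 3, where the Otoa-high cells held no UMI of the gene. The prolyl hydroxylase subunit P4ha2 was at 197, 129, 128 and 174 CPM against 3.89, 3.93, 0 and 6.05 CPM (3.63 ± 0.22 (SE, adjusted p = 1.00e-06)). The integrin subunit Itga8 was at 256, 243, 273 and 210.1 CPM against 20.1, 11.8, 0 and 24.9 CPM (3.54 ± 0.30 (SE, adjusted p = 1.33e-05)). Among transcription factors, the retinoid X receptor Rxrg was at 102, 178, 249 and 499.7 CPM in members against 9.35, 14.8, 0 and 30.4 CPM, a difference of 3.45 ± 0.30 (SE, adjusted p = 1.83e-05). The LIM homeodomain factor Isl1 was at 525, 265, 423 and 518 CPM against 77.4, 7.97, 27.1 and 59.2 CPM (3.26 ± 0.21 (SE, adjusted p = 1.52e-06)), and Gata2 at 165, 86.02, 102 and 267 CPM against 4.47, 0, 0 and 19.3 CPM (3.39 ± 0.21 (SE, adjusted p = 1.16e-06)). All 6 genes were higher in members in 4 of 4 libraries, which was a condition for naming the largest rises. None overlapped between the groups, and the share of all tested genes without overlap was not counted. Spink5, Scara3, the guanylate cyclase subunit Gucy1b3 and the pentraxin Nptx2 were the others of the 10 largest rises, by 3.68, 3.32, 3.02 and 2.88.

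Matn1, Fxyd6 and Ptgds fell most against the Otoa-high cells. The cartilage matrix protein Matn1 stood at 26.4, 37.04, 34.9 and 22.8 CPM in members and 1147, 1261, 1831 and 941 CPM in the Otoa-high cells, a difference of -4.99 ± 0.14 (SE, adjusted p = 2.44e-09). Fxyd6, a regulator of the sodium pump, was at 17.4, 25.5, 25.9 and 35.7 CPM and 673, 1554, 813 and 1060.4 CPM (-4.79 ± 0.17 (SE, adjusted p = 1.36e-08)), and Ptgds, prostaglandin D synthase, at 80.96, 68.4, 63.6 and 60.9 CPM and 2042, 2484, 1330.3 and 1772 CPM (-4.58 ± 0.14 (SE, adjusted p = 2.44e-09)). No library of members reached the level of any Otoa-high library for these genes. Mal, Fxyd3, Emp1, Ly6e, Fgfbp1, Apoe and Car9 also fell, with log2 differences of -4.37, -4.33, -4.29, -4.25, -4.25, -4.002 and -3.98. All 9 genes tested of the interdental marker list were lower, with a median of -3.78, which the selection of both groups on Otoa favours and which is a description.

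**Figure D3:**
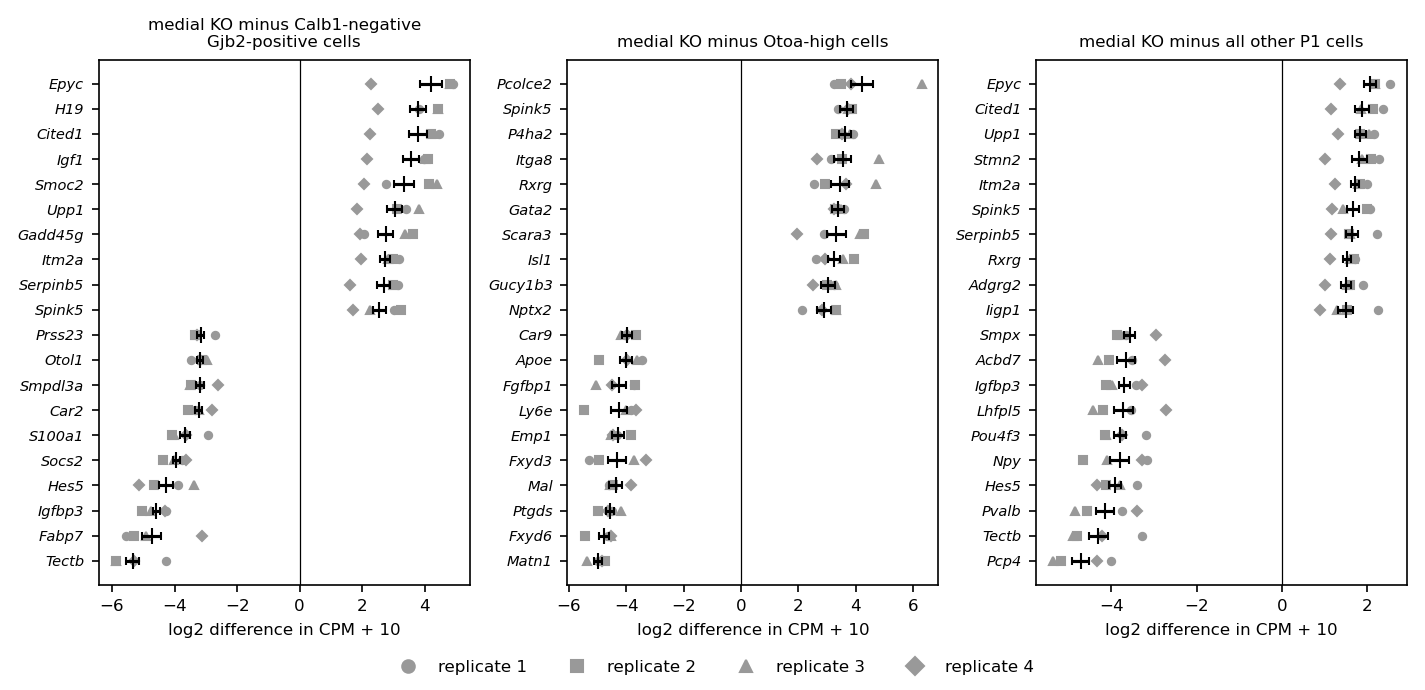
The 10 largest rises and 10 largest falls in each of the 3 comparisons, as log2 differences of CPM + 10 on the horizontal axis; grey symbols are the 4 P1 libraries, the black tick the limma estimate and the bar its SE. The libraries of a gene lie on 1 side of 0, which was a condition for naming it. Replicate 4 is closest to 0 for each of the 10 genes that rose most against the Calb1-negative Gjb2-positive cells.

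Genes that make the tectorial membrane were mostly lower than in the Calb1-negative Gjb2-positive cells. There, 1 of 11 tested genes of the list was higher and 8 were lower, with a median of -0.60 beside 0.05 over all genes. In the test against the Otoa-high cells 6 of 11 were higher and 1 lower, with a median of 1.00 beside 0.13. Tecta, the membrane protein α-tectorin, stood at 803, 1143, 1101 and 765 CPM in members, 1396, 1942, 2071 and 1407 CPM in the Calb1-negative Gjb2-positive cells and 218, 132, 249.8 and 117 CPM in the Otoa-high cells. The differences were -0.83 ± 0.05 (SE, adjusted p = 1.19e-06) and 2.39 ± 0.17 (SE, adjusted p = 4.04e-06). The collagen chain Col9a1 was likewise lower than in the first group and higher than in the second, by -0.99 and 1.51. Otog, encoding otogelin, differed from the Calb1-negative Gjb2-positive cells by -1.08 ± 0.08 (SE, adjusted p = 3.76e-06) and from the Otoa-high cells by 1.35 ± 0.30 (SE, adjusted p = 0.0112), and the second call was lost without replicate 4 (adjusted p = 0.0585).

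Small leucine-rich proteoglycans bind collagen fibrils, and 4 genes of that list could be tested against the Calb1-negative Gjb2-positive cells. Epyc and Lum were higher and Dcn and Podn lower there. Lum (lumican) stood at 3254, 1504, 1368 and 4117 CPM in members, 1142, 774, 671 and 1639 CPM in the Calb1-negative Gjb2-positive cells and 1041, 547, 264 and 832 CPM in the Otoa-high cells, with differences of 1.20 and 1.92. Members and Calb1-negative Gjb2-positive cells overlapped across libraries for Lum, and members were higher within each library. Dcn (decorin) stood at 527, 700.0, 719.9 and 396 CPM, 722, 958, 935 and 1027 CPM and 422, 588, 334 and 557 CPM. It was lower in members than in the first group by -0.65 ± 0.14 (SE, adjusted p = 0.0044), and its difference of 0.29 from the second did not pass the test (adjusted p = 0.359). Relative to the Otoa-high cells 3 of 6 tested proteoglycan genes were higher and 2 lower. Among 25 other matrix genes and matrix enzymes tested against the Calb1-negative Gjb2-positive cells, 7 were higher, with fibronectin (Fn1) at 2.04, and 9 lower, with thrombospondin 1 (Thbs1) at -2.04 and Sparcl1 at -1.08. Among 29 tested against the Otoa-high cells 8 were higher and 14 lower, among them the basement membrane chain Col4a1 at -3.35 and Ucma at -3.56.

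Genes for folding and secretion of collagen were lower in members than in the Calb1-negative Gjb2-positive cells. Of 28 tested, 1 was higher and 23 lower, beside 18.1% and 13.8% of all genes, and the median was -0.57. The chaperone Hspa5 stood at 1295, 1179.5, 907 and 600.0 CPM against 2264, 2106, 1748 and 864 CPM (-0.77 ± 0.07 (SE, adjusted p = 1.30e-05)). The disulfide isomerase Pdia6 stood at 1948, 1449, 1407 and 1006 CPM against 2759.9, 3098, 2902 and 1951 CPM (-0.89 ± 0.09 (SE, adjusted p = 2.53e-05)), and Sdf2l1 at 475, 248, 255 and 102 CPM against 996, 637, 687 and 175 CPM (-1.12 ± 0.10 (SE, adjusted p = 1.36e-05)). The libraries of the groups overlapped for Hspa5 and Sdf2l1, with replicate 4 the lowest of both groups, and members were lower within each library. Beside the Otoa-high cells 3 of 27 were higher and 1 lower, and the median of 0.11 lay near the 0.13 of all genes. The early-response genes that rise during cell dissociation moved as well: 9 of 16 were lower in members than in the Calb1-negative Gjb2-positive cells and none was higher, with Egr1 at 58.7, 46.6, 46.4 and 47.6 CPM against 234, 112, 136 and 84.9 CPM. Without replicate 3, the calls of Btg2, Nr4a1 and Ier3 were lost (adjusted p = 0.0714, 0.073 and 0.0894), and that of Ier3 was also lost without replicate 1 or replicate 2 (adjusted p = 0.0505 and 0.0657). Against the Otoa-high cells 6 of 16 were lower and none higher, with Egr1, Fos, Fosb and Jund at -1.66, -1.49, -1.22 and -0.85. The call of Fos was lost in the depth window (-0.69, adjusted p = 0.402), with summed UMIs (adjusted p = 0.0817) and without replicate 2 (adjusted p = 0.089). That of Atf3, also among the 6, was lost without replicate 4 (adjusted p = 0.074) and with Calb1 of at least 1.5 (adjusted p = 0.0543). Both genes were lower in 3 libraries and higher in 1. The part of the early-response genes in these results was not tested.

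Gap junction proteins couple the cells of KO and take part in its ATP signalling. Gjb2 (connexin 26) stood at 463, 529.7, 552 and 756 CPM in members and at 173, 35.3, 48.9 and 116 CPM in the Otoa-high cells, and chose the Calb1-negative Gjb2-positive cells, so that it was not tested against them. It was higher in members than in the Otoa-high cells by 2.70 ± 0.28 (SE, adjusted p = 6.98e-05), and lower than in all other P1 cells, at 809, 782, 871 and 808 CPM, with a difference of -0.52 ± 0.09 (SE, adjusted p = 0.00281) and no overlap. Gjb6 (connexin 30) stood at 44.2, 33.4, 46.2 and 118 CPM in members and 329, 255, 375 and 558 CPM in the Calb1-negative Gjb2-positive cells, a difference of -2.54 ± 0.10 (SE, adjusted p = 6.22e-08). The chloride channel Ano1, which acts downstream of ATP receptors, stood at 40.8, 38.2, 49.7 and 60.8 CPM and 108, 96.1, 106 and 109.9 CPM (-1.02 ± 0.09 (SE, adjusted p = 1.48e-05)), and the ATP receptor P2ry1 differed by -1.25. Of 9 tested genes of this list, none was higher and 5 were lower than in the Calb1-negative Gjb2-positive cells, which were chosen for Gjb2. Against all other P1 cells the difference of Gjb6 was -1.27, and that of Ano1 was -0.17 and did not pass the test (adjusted p = 0.0878). With the exclusions of the members applied to these cells, Ano1 passed (-0.28, adjusted p = 0.0133), as it did with Calb1 of at least 1.5 (-0.22, adjusted p = 0.0315). Ano1 was higher in members than in the Otoa-high cells by 2.26 ± 0.26 (SE, adjusted p = 1.21e-04), and so was Gjb6 by 1.52 ± 0.31 (SE, adjusted p = 0.00718), a call that was lost without replicate 4 (adjusted p = 0.059). Those 2 genes and Gjb2 were the 3 of 9 that were higher there, and none was lower.

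Slc12a2, the sodium, potassium and chloride cotransporter NKCC1, was higher in members than in both groups. It stood at 470.2, 604, 610.5 and 729.7 CPM in members, 80.3, 126, 122 and 256 CPM in the Calb1-negative Gjb2-positive cells and 62.7, 51.01, 187 and 116 CPM in the Otoa-high cells. The differences were 2.08 ± 0.12 (SE, adjusted p = 1.30e-06) and 2.57 ± 0.22 (SE, adjusted p = 1.33e-05), with no overlap of libraries in either. In the whole list, 7 of 15 genes were higher and 7 lower than in the Calb1-negative Gjb2-positive cells, and 5 of 16 were higher and 4 lower than in the Otoa-high cells. The pump subunit Atp1b1 was 2.62 higher than in the Otoa-high cells on the log2 scale.

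Retinoic acid genes other than Crabp1 lay on both sides of the Calb1-negative Gjb2-positive cells. Rxrg stood at 11.6, 20.6, 39.3 and 179 CPM in the Calb1-negative Gjb2-positive cells, and the level in members given above was higher in each library, by 2.21 ± 0.16 (SE, adjusted p = 4.11e-06). Across libraries Rxrg was highest in replicate 4 in members and in both comparison groups. The retinoic acid-degrading enzyme Cyp26b1 was lower, at 17.9, 27.1, 39.6 and 40.7 CPM in members against 121, 94.7, 108 and 63.3 CPM (-1.38 ± 0.21 (SE, adjusted p = 5.60e-04)). Of 9 genes tested there, 2 were higher (Rxrg and Rarg) and 4 lower. The call of Crabp2 among the latter (-0.15) was lost without any 1 of the 4 libraries (adjusted p = 0.0563 to 0.162). Beside the Otoa-high cells 4 of 8 were higher and none lower, with Crabp2 at 1.49. For thyroid hormone genes, 2 of 6 were higher (the receptors Thra and Thrb, at 0.40 and 0.39) and 4 lower than in the Calb1-negative Gjb2-positive cells. The hormone-binding protein Crym stood at 299.7, 178, 185 and 126 CPM in members, 757, 495, 498 and 313 CPM in the Calb1-negative Gjb2-positive cells and 46.8, 6.46, 0 and 49.4 CPM in the Otoa-high cells, and differed by -1.34 and 2.86. The call for Thrb was lost with the exclusions of the members applied to the comparison cells (0.26, adjusted p = 0.0688).

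In the insulin-like growth factor (IGF) pathway the ligands and the binding proteins lay on opposite sides of the Calb1-negative Gjb2-positive cells. Igf1, Igf2 and H19 were the 3 genes of 9 that were higher, and Igfbp2, Igfbp3, Igfbp5 and Igf2r the 4 that were lower. Igf2 stood at 57.4, 179, 182 and 116 CPM in members and 15.9, 40.5, 44.6 and 49.3 CPM in the comparison cells (1.55 ± 0.13 (SE, adjusted p = 8.92e-06)), and Igfbp5 at 143, 150.1, 165 and 138 CPM and 464, 682, 615 and 347 CPM (-1.71 ± 0.11 (SE, adjusted p = 2.15e-06)). The receptor Igf1r differed by -0.04 (adjusted p = 0.712). Against the Otoa-high cells, Igf1 differed by 0.20 ± 0.13 (SE, adjusted p = 0.343), while Igfbp2, H19 and Igf2 were lower, at -3.92, -1.70 and -0.97. H19 thus stood at 1154, 1599, 1059 and 1442 CPM in the Otoa-high cells, above the members in every library.

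Notch and prosensory genes, which mark the precursors of the sensory cells, were mostly lower in members. Of 18 tested, 4 were higher and 11 lower than in the Calb1-negative Gjb2-positive cells. Sox2, the prosensory transcription factor, stood at 20.7, 14.8, 12.9 and 32.9 CPM against 166, 137, 173 and 200.4 CPM (-2.60 ± 0.11 (SE, adjusted p = 9.36e-08)), the Notch ligand Jag1 at 14.7, 20.9, 15.1 and 45.6 CPM against 132, 181, 177 and 142 CPM (-2.38 ± 0.19 (SE, adjusted p = 7.57e-06)), and the Notch modifier Lfng at 8.26, 5.93, 4.59 and 4.55 CPM against 107, 50.6, 44.6 and 85.8 CPM (-2.31 ± 0.15 (SE, adjusted p = 2.23e-06)). None of the 3 overlapped, and they were named for the size of their differences. With the exclusions of the members applied to the comparison cells, the difference of Lfng was -1.55. Drawn down to 1500 UMIs, Sox2 had a UMI in 2.42% to 4.74% of members, in 17.0% to 24.5% of the Calb1-negative Gjb2-positive cells and in 0% to 2.55% of the Otoa-high cells. The share was 4.04% to 7.38% in hair cells. These are no empty background for Sox2, which the paper found in cells at the start of its P1 outer hair cell trajectory. Whether members express Sox2 is therefore not read from their share. Relative to the Otoa-high cells 5 of 15 genes were higher, with Hey1 at 2.35, and 1 was lower. Of 24 regional transcription factors, 9 were higher and 11 lower than in the Calb1-negative Gjb2-positive cells. Gata2 was 1.77 and Klf2 1.26 on the log2 scale, and Isl1 and Sall2 -1.27 and -1.55. Against the Otoa-high cells 9 of 23 were higher, among them Gata3 at 2.80 and Ebf1 at 1.41, and 5 lower.

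The counts of the lists are to be read beside the shares of all genes, 18.1% higher and 13.8% lower against the Calb1-negative Gjb2-positive cells and 6.87% and 5.61% against the Otoa-high cells. With lists of this size, several counts lie near those shares, such as the genes that were higher in the Notch and Wnt lists. In the Wnt pathway 7 of 26 genes were higher and 8 lower than in the Calb1-negative Gjb2-positive cells. The stem cell receptor Lgr5 stood at 3.03, 3.19, 2.23 and 2.67 CPM against 42.9, 61.4, 63.1 and 39.9 CPM (-2.25 ± 0.12 (SE, adjusted p = 6.12e-07)) and the secreted protein Dkk3 at 115, 206, 205 and 259 CPM against 504, 716, 787 and 926 CPM (-1.87 ± 0.06 (SE, adjusted p = 2.77e-08)). The ligand Wnt9a was higher, at 35.8, 37.9, 68.8 and 110.1 CPM against 12.1, 6.25, 14.8 and 36.2 CPM (1.41 ± 0.11 (SE, adjusted p = 7.28e-06)). Against the Otoa-high cells 3 of 24 Wnt genes were higher and 6 lower, with the inhibitor Sostdc1 at -3.14. In the BMP and TGF-beta pathway 2 of 20 were higher and 8 lower than in the Calb1-negative Gjb2-positive cells, with follistatin (Fst) at -2.44 and Fstl1 at -1.48, and 6 of 18 were higher and 1 lower than in the Otoa-high cells, with Id2 at 1.82. Calcium-binding genes other than Calb1 were 7 of 14 higher and 4 lower than in the Calb1-negative Gjb2-positive cells. Against the Otoa-high cells they were 2 of 12 higher and 3 lower.

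Most proliferation genes were too low to test. Of 20 proliferation genes 4 were at a level that could be tested, 1 of them higher than in the Calb1-negative Gjb2-positive cells and none different from the Otoa-high cells by limma. Among 7 cell cycle inhibitors and D cyclins 1 was higher and 2 lower than in the Calb1-negative Gjb2-positive cells, and 2 were lower than in the Otoa-high cells. The inhibitor Cdkn1c (p57) stood at 999, 1004, 1049 and 517 CPM in members, 156, 117, 115 and 208 CPM in the Calb1-negative Gjb2-positive cells and 17081, 15967, 14112 and 5238 CPM in the Otoa-high cells, with differences of 2.49 ± 0.23 (SE, adjusted p = 2.27e-05) and -3.78 ± 0.11 (SE, adjusted p = 2.44e-09). Cdkn1b (p27) was lower than in the Calb1-negative Gjb2-positive cells, at 11.5, 13.02, 11.9 and 15.1 CPM against 56.4, 51.9, 46.6 and 55.5 CPM (-1.45 ± 0.09 (SE, adjusted p = 1.70e-06)). Among adhesion and claudin genes, 4 of 19 were higher and 7 lower than in the Calb1-negative Gjb2-positive cells and 3 of 21 higher and 13 lower than in the Otoa-high cells. Cdh4 was higher in members than in both groups, by 1.10 and 2.79, and the keratin Krt19 stood at 698, 1129, 713 and 214 CPM in the Otoa-high cells against 61.9, 76.5, 65.7 and 32.3 CPM in members.

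**Figure D4:**
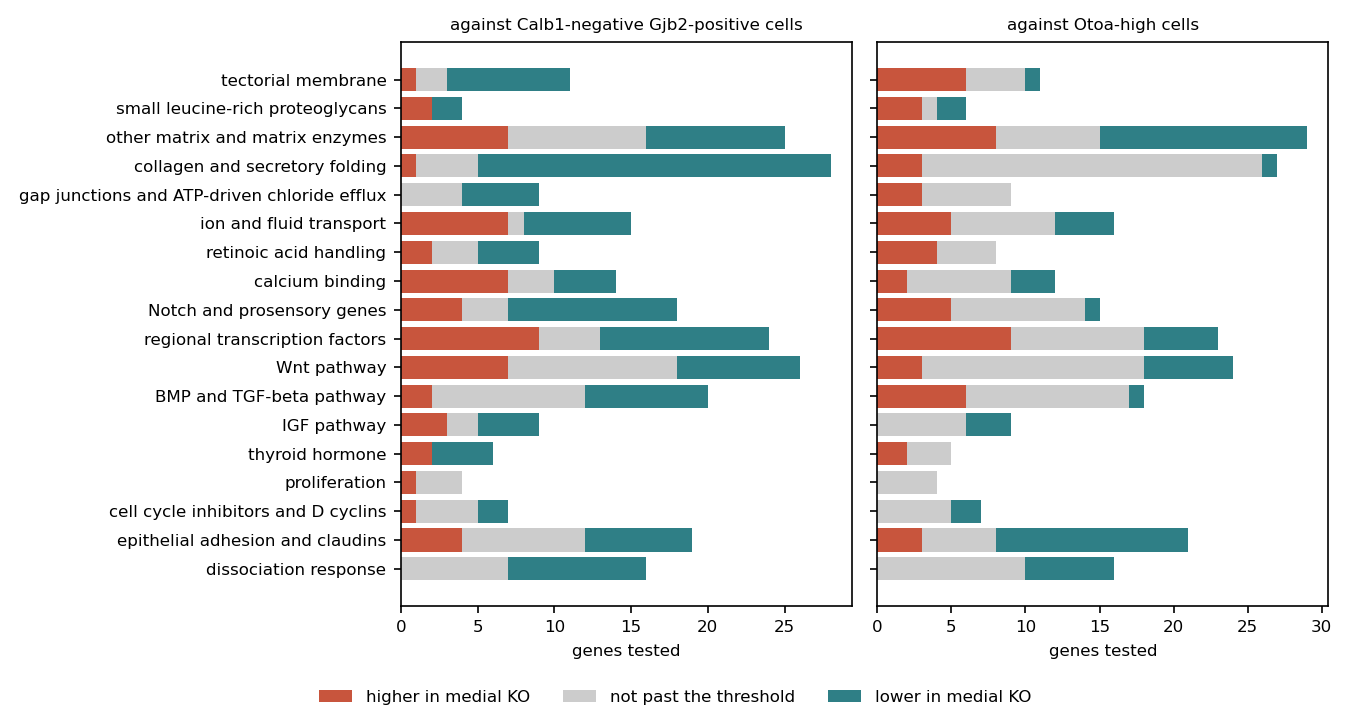
Number of tested genes of 18 lists that were higher, lower or not past the threshold in members, against Calb1-negative Gjb2-positive cells (left) and Otoa-high cells (right). In collagen and secretory folding 23 of 28 genes are lower on the left and 1 of 27 on the right.

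Against all other P1 cells together, 1230.0 genes rose (14.3% of 8584) and 1562 fell (18.2%) in members, 46 and 279 of them by at least 2-fold. These cells include the groups above and the hair cells and supporting cells, so that the 3 comparisons share the members and part of the comparison cells. The 10 largest rises were Epyc at 2.06 ± 0.15 (SE, adjusted p = 1.28e-05), Cited1, Upp1, Stmn2, Itm2a, Spink5, Serpinb5, Rxrg, the adhesion receptor Adgrg2 and the interferon-induced GTPase Iigp1, at 1.87, 1.83, 1.81, 1.71, 1.66, 1.63, 1.53, 1.504 and 1.49. Stmn2, a microtubule regulator best known from neurons, stood at 476, 485, 398 and 106 CPM in members and 90.3, 107, 101 and 47.6 CPM in the other cells. The largest falls included Tectb at -4.31 ± 0.22 (SE, adjusted p = 2.06e-06), Pcp4 at -4.72 ± 0.20 (SE, adjusted p = 6.28e-07), the hair cell genes Pvalb, Pou4f3, Lhfpl5 and Acbd7 at -4.15, -3.80, -3.72 and -3.66, and Hes5, Npy, Igfbp3 and Smpx at -3.92, -3.81, -3.70 and -3.57. With the exclusions of the members applied to the other cells, which removes hair cells, Pcp4 stood at -1.64 and Acbd7 at -0.27 (adjusted p = 0.0565). The balance of the calls turned under that setting, to 1359 genes higher and 1088 lower (55.5% of calls higher, against 44.1%). Without cells of more than 3000 genes, Pvalb, Pou4f3, Lhfpl5 and Acbd7 stood at -3.44, -3.16, -3.04 and -3.06. The count of genes higher was 780.0 without replicate 2 and 705 without replicate 3.

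Markers of other cell types were measured in the members by their summed level. The 11 hair cell markers outside the rule summed to 144 to 264 CPM in members, by library, with Cib2 the highest. All other cells, which keep the hair cells that the rule leaves out, held 1630 to 3038 CPM. That contrast follows in part from the selection and is a description. The Calb1-negative Gjb2-positive cells, also chosen not to be hair cells, had a lower sum than members in each library. The sums were 189.6 against 263.5 CPM in replicate 1 and 132.8 against 147.3 CPM in replicate 2, and were not tested. Pvalb had a UMI in 0.23% to 1.03% of members after thinning, against 0.195% to 0.563% of Calb1-negative Gjb2-positive cells. The 13 pillar and Deiters cell markers summed to 925 to 1784 CPM in members and 3112 to 4287 CPM in the Calb1-negative Gjb2-positive cells, and 8 of 10 tested were lower in members. The part of these transcripts in the differences was not tested. The 9 interdental markers outside the rule summed to 1464 to 2249 CPM in members, 274 to 498 CPM in the Calb1-negative Gjb2-positive cells and 13364 to 26718 CPM in the Otoa-high cells, and 7 of 9 were higher in members than in the Calb1-negative Gjb2-positive cells. Of the 5 inner phalangeal markers left, 3 of 4 tested were lower than in the Calb1-negative Gjb2-positive cells. The call of Slc1a3 among them (-0.46) was lost with the exclusions of the members applied to the comparison cells (-0.22, adjusted p = 0.199) and without replicate 1, 2 or 3. Hensen, Claudius and outer sulcus markers (10 genes, with Fbxo2 the highest) summed to 2770 to 4759 CPM in members and 2089 to 3668 CPM in the Calb1-negative Gjb2-positive cells. Fbxo2 alone averaged 3399 and 2553 CPM in these groups. Of 7 genes of the list tested there, 3 were higher and 4 lower in members, with a median of -0.53.

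Markers of cells from outside the epithelium and of the roof were also summed. The 8 mesenchyme markers summed to 8.82 to 29.1 CPM in members with 1 gene at 0, the 12 blood, immune and endothelial markers to 6.13 to 53.7 CPM with 3 at 0, the 4 melanocyte markers to 3.39 to 5.14 CPM with 1 at 0 and the 6 roof markers to 2.58 to 12.9 CPM. The 7 glial markers summed to 113 to 158 CPM in members, with Sox10 the highest and 1 at 0, against 83.1 to 104 CPM in the Calb1-negative Gjb2-positive cells and 205 to 293 CPM in the Otoa-high cells. Sox10 and Cnp were the 2 glial genes tested against the Calb1-negative Gjb2-positive cells. Both were higher in members, by 0.43 ± 0.10 (SE, adjusted p = 0.00885) and 0.73 ± 0.11 (SE, adjusted p = 5.62e-04). Both calls were lost without the block (adjusted p = 0.339 and 0.372), as were many named calls of other lists. The call of Sox10 was also lost without replicate 2 (0.33, adjusted p = 0.0519). The 7 neuronal markers summed to 117 to 493 CPM in members, with Stmn2 the highest and 2 at 0, against 43.3 to 81.3 CPM in the Calb1-negative Gjb2-positive cells and 56.3 to 91.5 CPM in the Otoa-high cells. Stmn2 alone stood at 476, 485, 398 and 106 CPM in members. In all other P1 cells the sum was 105 to 246 CPM. Against these cells 1 of 3 tested was higher in members (Stmn2) and 2 lower, with Nefm at -2.60. The part of these markers in the differences was not tested. No doublet caller was run. Of the members 2.45% had more than 3000 genes, against 10.0% of the other cells. In all, 84 P1 barcodes occurred in more than 1 library, and 43 members carried such a barcode.

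Members varied among themselves in Epyc and in genes that followed it. Over member cells within libraries, the 10 genes whose ln values were closest to Epyc were Itm2a (mean Pearson r over 4 libraries of 0.45), Igf1 (0.39), Hint1 (0.35), Smoc2 (0.33), Crabp1 (0.31), Tmsb10 (0.29), Lum (0.29), Meg3 (0.28), Cdkn1c (0.27) and H19 (0.27). Itm2a lay between 0.34 and 0.55 in the 4 libraries and Igf1 between 0.34 and 0.43. The 5 genes with the most negative values, given outside the naming rule, were Sdf2l1 (-0.37), Pdia6 (-0.37), Mia (-0.36), Isl1 (-0.35) and Fkbp9 (-0.33). Among 3106 genes with a UMI in at least 20% of members the median absolute r was 0.024. Cells of a library share their preparation, and all values of a cell share its UMI total. The r of Epyc with the log of that total was 0.0037, and that of the 10 genes lay between -0.030 and 0.13. These correlations are a description. The genes at the positive end include Igf1, Smoc2, H19 and Lum, which were also higher in members than in the Calb1-negative Gjb2-positive cells, and those at the negative end include Isl1, Pdia6 and Sdf2l1, which were lower.

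The same rule was applied at the other ages as a description, since ages were collected apart. It took 3.09% and 2.29% of the cells at E14 (68 and 70 cells), 12.8%, 20.3% and 21.7% at E16 (159, 572 and 848 cells) and no cell at P7. Median depth over all cells was 3317 to 3508 UMIs at E14, 2478 to 2750.0 at E16, 3832 to 5648 at P1 and 4510.0 to 4850 at P7, and the rule needs a UMI of Crabp1 and zeros of Otoa and Matn4, so that the shares depend on depth to a degree that was not tested. The P7 libraries held 1775 and 1602 cells, and 3 counts of these totals, the limit that a count of 0 allows, are 0.169% and 0.187%. The exact 95% intervals drawn in the plot of shares reach 0.208% and 0.23%. Calb1 of at least 2.0 was still found in 9.47% and 10.7% of P7 cells, but Crabp1 had a UMI in 0.225% and 0.499%. Over all cells of the P7 libraries, where no cell met the rule, Epyc averaged 3405 and 2641 CPM. Epyc in cells of the rule averaged 3011 ± 320 CPM at E14 (SD, n = 2), 5324 ± 457 CPM at E16 (n = 3) and 6115 ± 1162 CPM at P1 (n = 4). Crabp1 averaged 796 ± 159 CPM, 1911 ± 358 CPM and 2351 ± 632 CPM, with the E14 libraries below all others. Tecta averaged 603 ± 45.5 CPM, 654 ± 81.5 CPM and 953 ± 197 CPM. Gjb2 stood at 506 ± 151 CPM, 492 ± 130 CPM and 575 ± 126 CPM, within the spread of the libraries. Gjb6 stood at 10.3 ± 5.86 CPM, 29.9 ± 3.81 CPM and 60.6 ± 39.0 CPM. All E14 libraries lay below all E16 libraries and these below all P1 libraries, though the nearest E16 and P1 libraries were at 33.27 and 33.35 CPM. Over all cells of a library Gjb6 also rose with age, at 15.3 and 23.2 CPM at E14, 29.9 to 46.6 CPM at E16 and 79.2 to 205 CPM at P1.

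**Figure D5:**
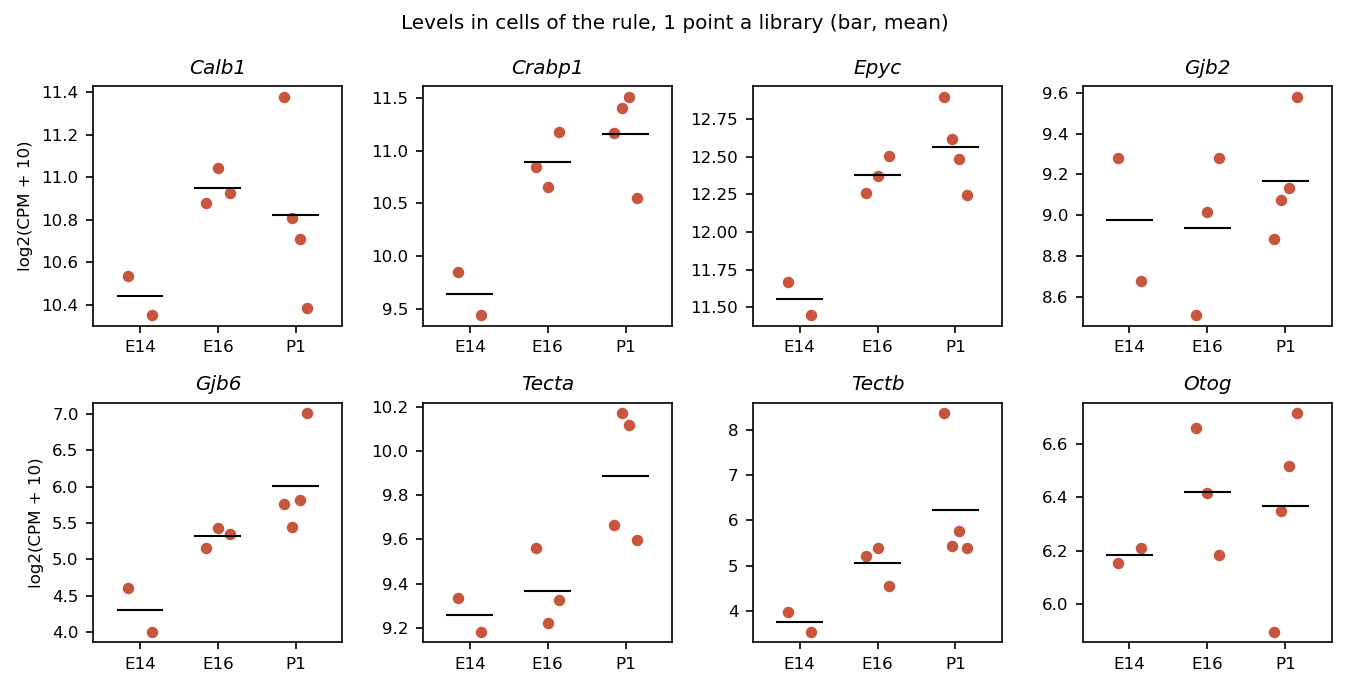
Levels of 8 genes as log2(CPM + 10) in cells of the rule at E14, E16 and P1, 1 point for each library, with the mean as a bar. Crabp1 and Gjb6 are lowest in both E14 libraries, and Gjb2 overlaps between ages.

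At E16 the cells of the rule could be set against Calb1-negative Gjb2-positive cells of the same libraries. Of 1423 genes that were higher at P1 and measured at E16, 592 (41.6%) were also higher in all 3 E16 libraries, beside 17.3% of all 7859 genes measured at both ages, and 102 (7.17%) were lower in all 3. Of 1041 genes lower at P1, 665 (63.9%) were lower in all 3, beside 23.5% of all genes, and 34 (3.27%) were higher in all 3. Epyc differed at E16 by 2.87 on the log2 scale (2.58 to 3.34 over 3 libraries), Igf1 by 2.29 (1.47 to 3.08), Tectb by -3.67 (-4.01 to -3.48) and Igfbp3 by -2.83 (-2.92 to -2.77). H19, which differed by 3.79 at P1, differed by 0.59 (0.47 to 0.81) at E16, and Itm2a by 0.95 (0.34 to 1.33) against 2.73. The E16 difference of Slc12a2 was 1.79 (1.64 to 1.95), beside 2.08 at P1. Gata2, Krt19 and Dcn lay in the opposite direction in all 3 E16 libraries. Gata2 differed by -1.64 (-1.90 to -1.43) at E16 and 1.77 at P1, Krt19 by -0.97 (-1.75 to -0.45) and 1.76, and Dcn by 0.60 (0.57 to 0.63) and -0.65. No test was made between the ages.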

How the data were processed

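Single cells of the cochlear floor of wild-type CD1 mice at E14, E16, P1 and P7 were profiled in 11 10x Chromium 3′ libraries. The authors aligned and counted reads with Cell Ranger 2.1.1 against mm10 and filtered cells with Seurat 2.0, per the submitters' processing notes, and deposited the natural log (ln) of 1 plus 10000 times each gene's share of the UMIs of a cell. Cells rich in mitochondrial or stress genes had been removed by the authors, which can lower the levels of early-response genes. The deposited values returned whole UMIs for 100% of values within 2%. P1 libraries held 11829392 to 23523802 UMIs.

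Members and lists were chosen with earlier results of these data known. Values were returned to CPM and averaged over the cells of a group in each library, for profiles of at least 5 cells, and log2(CPM + 10) was tested with limma 3.58.1 (R 4.3.3, trend, library as a block) on every gene averaging 10 CPM or more across the profiles compared. Benjamini-Hochberg adjustment covered all genes of a comparison, at 0.05. Both groups of a comparison are cells of the same libraries, which is where the pairing comes from. The p-values rest on how much the difference between the groups within a library varied over the 4 collections, since the block removes the levels of the libraries. With 4 pairs, the smallest p-values also depend on the limma model, which draws the variance of a gene towards that of other genes. Descriptions were computed in Python 3.11.15 (numpy 2.4.6, pandas 2.3.3, scipy 1.17.1).

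The text names the 10 largest rises and falls per comparison that passed the test, reached 50 CPM in a group and went 1 way in all 4 libraries, up to 6 genes per list by size of difference, and the 10 genes closest to Epyc. Genes of the rule, mitochondrial, ribosomal, haemoglobin and unnamed genes were left out. Alternatives were another pseudocount, no filter, no block, centring, summed UMIs, a depth window, cells of up to 3000 genes, other thresholds, equal exclusions and each library left out. In simulated data with 2-fold and 4-fold changes, 99% and 100% were recovered for the Calb1-negative Gjb2-positive comparison. The shares were 100% of both for all other cells, and 37.9% and 88.9% for the Otoa-high comparison. False calls were 5.1%, 3.55% and 0% of the calls in the same order. Both groups of a simulated library had the same library effect, and all genes 1 dispersion. Changes that vary more between libraries were not simulated, so that the recovered shares can be too high for these data. No doublet caller was run. Intervals and floors cover counting error only. Gene positions are from the GENCODE annotation of GRCm38 and upstream windows from RefSeq on GRCm38.p6.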

Additional observations from a re-analysis of the deposited data

Results flagged for a closer look

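In all, 42 values were examined for 1 of the 4 libraries far from the other 3. They were levels of named genes in members and the library shares of members, Calb1-negative Gjb2-positive cells and Otoa-high cells. Such a library was found for 6 values, all of them gene levels in members, and chance alone sets about 1 in 20 such groups apart. Replicate 1 was the high library for Tectb (319 CPM), S100a1 (234 CPM), Ly6e (43.2 CPM), Car2 (41.9 CPM) and Fabp7 (13.1 CPM). Replicate 4 was the high library for Car9 (42.9 CPM). Hair cells of replicate 1 held 277 CPM of Tectb, against 38.4 to 53.8 CPM in those of the other libraries. The cause was not tested.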

How the results depend on the processing

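Of 5385 values of 344 named log2 differences under alternatives, 5071 kept their direction and side of the threshold, 241 lost the call, 45 gained it and 28 changed sign. Of the 28, 21 passed the threshold in neither fit, such as Igf1r against the Otoa-high cells (0.25 in the depth window). Without the replicate block, 160.0 genes were higher and 292 lower than in the Calb1-negative Gjb2-positive cells, 72 and 354 than in all other cells, and 197 and 204 than in the Otoa-high cells. More named calls were lost under this alternative than under any other. Against the Calb1-negative Gjb2-positive cells they included Hspa5, Sdf2l1, Lum, Dcn, Rxrg, Thra, Thrb and Wnt9a. Gjb6 and Hey1 against the Otoa-high cells, and Gjb2 against all other cells, were also among the calls lost. Without the filter, 2633 genes were lower than in all other cells, and 264 were higher and 226 lower than in the Otoa-high cells. A pseudocount of 1 CPM gave 311 genes higher than in the Otoa-high cells. Leaving out each library gave 890.0 to 1475 genes higher and 840.0 to 1127 lower than in the Calb1-negative Gjb2-positive cells, 705 to 1089 and 1084 to 1483 for all other cells, and 269 to 698 and 312 to 548 for the Otoa-high cells. With the exclusions of the members applied to all other cells, 7 log2 differences past the threshold in either fit changed sign: Fxyd6 (0.22), Crabp2 (-0.11), Hes6 (0.0597), Cdkn2d (0.0839), Cdkn1c (0.97), Cldn14 (0.0048) and Krt19 (0.61). Without replicate 1, the difference from the Otoa-high cells was 2.98 for Hey1 and -0.65 for Atf3. Leaving out cells with shared barcodes, chosen after seeing the data, lost no call. The causes were not tested. The Otoa-high comparison is limited by its cell number, 12 in replicate 3.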
